A study of Ixodes ricinus with 9 samples.

Results

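Midgut transcriptomes of ticks given RNA against antigen p23 or metalloprotease were set together, as 1 class of 6 knockdown pools, against 3 pools of GFP control ticks. All 9 libraries of the series enter this comparison. Female Ixodes ricinus were injected unfed with double-stranded RNA (dsRNA) of antigen p23, of metalloprotease or, in the GFP control, of GFP, a jellyfish protein with no counterpart in the tick, and were then fed on bovine blood through an artificial membrane. Midguts were dissected on feeding day 7 from 9 ticks per group, in 3 pools of 3 ticks. The injection of dsRNA, the way of feeding and the tissue were thus common to all groups. The study reports low and inconsistent detachment of ticks in the GFP control group and names handling errors as a possible reason. A gene was taken to separate the classes when the lowest of its 6 knockdown values lay above the highest of its 3 GFP control values, or its highest below their lowest. The question was which genes set all knockdown midguts apart from the control, whichever of the 2 genes had been targeted. Which table genes the 2 targets are could not be settled from the sources used here, and the depth of silencing in these pools is not analysed here. Knockdown therefore names the dsRNA that was given, all the more for metalloprotease. The study describes its transcript as fully silenced in salivary glands but only partially knocked down in the midgut, at a level it also likens to the control.

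The midgut is the organ in which a tick stores and digests its blood meal. Digestion takes place largely inside the midgut cells, in acid endosomes and lysosomes where cathepsins and legumain cut haemoglobin, and the vacuolar ATPase is the proton pump that acidifies these compartments. The same cells make secreted and membrane proteins through the endoplasmic reticulum and the Golgi, and store iron in ferritin. Injected dsRNA is cut into small RNAs that direct the breakdown of matching transcripts, and dsRNA of a foreign gene serves as the control because it engages this machinery without a tick target.

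Levels are given as CPM, a library's counts rescaled to a common total with edgeR's TMM factors, and changes as log2 fold changes of knockdown over GFP control with their standard errors (SE). Library totals ranged from 3303358 to 9430607 counts in the knockdown pools and from 3306565 to 4681133 counts in the GFP control pools. Between 6294 and 10334 genes had at least 1 count in a knockdown library and between 9410 and 10988 in a GFP control library. The mean was 8817 ± 1660 genes (SD, n = 6) in the knockdown and 9957 ± 893 genes (SD, n = 3) in the GFP control libraries. The difference of -1140 genes was smaller in size than the knockdown SD but larger than the GFP control SD (exact permutation test, two-sided, p = 0.357, the smallest possible being 0.0238). Antigen p23 replicates 1 and 2 stood apart with 7291 and 6294 genes, and counts and list medians that lean on them are also given without them. Midgut markers had 4570 to 8970 CPM summed in the knockdown pools and 4310 to 6510 CPM in the GFP control pools, with soma ferritin (HPB47_026848), cathepsin L (HPB47_012847) and legumain (HPB47_025223) abundant in every library and 12 of the 26 listed genes without a count. Muscle markers were also present, at 1890 to 4520 CPM in the knockdown pools and 2360 to 3660 CPM in the GFP control pools. In such bulk samples, fewer cells of a type and less RNA per cell cannot be told apart. Genes are named by their best Swiss-Prot match in the annotation of the related tick I. persulcatus, to whose genome (BIME_Iper_1.3) the reads had been aligned.

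No gene passed an adjusted p of 0.05 in edgeR's quasi-likelihood test of the 6 knockdown against the 3 GFP control libraries, out of 6924 genes tested (0%), and the adjusted p was 0.999 for every gene described here. The unadjusted p was 0.05 or less at 92 genes (1.33%), a share well below the 0.05 that the threshold alone would give. Of these, 50 (0.722% of those tested) were higher and 42 (0.607%) lower in the knockdown pools. Those counts were 54 and 58 without antigen p23 replicates 1 and 2, 85 and 116 without metalloprotease replicate 1, 28 and 26 without GFP control replicate 1, and 65 and 64 without GFP control replicate 2. They were 145 and 209 with limma voom and sample weights, also with 0 calls after adjustment. The edgeR test may thus be conservative here, and its 0 calls do not show that no gene differs. DESeq2 called 1 gene higher (0.00792% of its 12625 genes) and 0 lower after adjustment, with 112 higher and 81 lower at an unadjusted p of 0.05 or less. All values that follow are therefore descriptions of these 9 pools. The separating genes were chosen on the same contrast, and neither their fold changes nor their p values are independent of that choice.

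The classes were separated at 103 of the 6924 genes tested (1.49%). If the class labels were exchangeable among the pools, a share of about 0.0238 of genes would meet the rule in either direction. The count of separating genes was thus below what labels without meaning would give. The rule alone therefore does not show a response shared by the knockdowns, and the genes that follow are a description of these pools. Every knockdown pool lay above every GFP control pool at 48 genes (0.693%) and below at 55 genes (0.794%). Their median log2 fold change was 0.61 for the higher genes, with a range of 0.23 to 3.39, and -0.97 for the lower genes, with a range of -2.71 to -0.27, against a median of -0.03 over all genes tested. An absolute log2 fold change above 1 was seen at 10 of the 48 higher and 24 of the 55 lower genes. The gap between the classes was narrow in most genes, with a median of 0.09 log2 units for the higher and 0.13 for the lower genes.

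The 2 directions differed in how strongly their genes were expressed. Per kilobase of gene length, the median level over the 9 libraries was 44.0 CPM for the higher genes and 5.52 CPM for the lower genes, against 17.7 CPM over all genes tested. A mean under 10 CPM was found for 6 of the 48 higher genes (12.5%), for 35 of the 55 lower genes (63.6%) and for 32.8% of all genes tested. Of the lower genes, 23 (41.8%) had no count in antigen p23 replicate 1 or 2, against 20.4% of all genes tested, while the rule itself bars a 0 from the knockdown pools of a higher gene. The lowest knockdown library was antigen p23 replicate 1 or 2 at 44 of the 55 lower genes and 4044 of the 6924 genes tested. GFP control replicate 2 was the lowest control library at 30 of the 55 and at 2740 of the 6924. Their part in the lower list was not tested. Without these 2 antigen p23 libraries the median log2 fold change was -0.75 for the 55 lower genes and 0.53 for the 47 higher genes still tested, their signs being fixed by the rule.

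**Figure D1:**
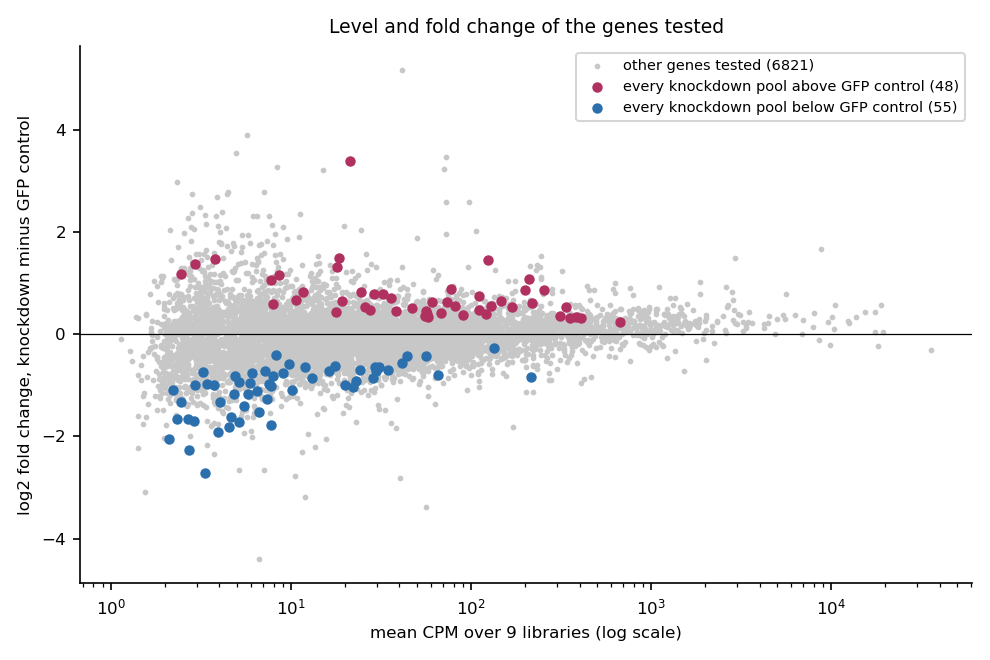
Mean level over the 9 libraries in CPM (log axis) against the log2 fold change of the 6 knockdown over the 3 GFP control pools, 1 point per gene tested. The 48 genes with every knockdown pool above GFP control spread over the range of levels, and most of the 55 genes with every knockdown pool below it lie at the weakly expressed end.

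The widest separation belonged to HPB47_012061, which carries a carboxylesterase domain and has neuroligin-2, an adhesion protein of vertebrate nerve cell contacts, as its match, on scaffold JABSTQ010011486.1 from 67325 to 69349. It had 38.2, 7.43 and 77.7 CPM in the antigen p23 pools and 6.92, 21.5 and 29.9 CPM in the metalloprotease pools, against 3.54, 2.24 and 2.83 CPM in the GFP control pools. The knockdown pools varied more than 10-fold among themselves, yet the lowest of them was well above the highest control. The log2 fold change was 3.39 (SE 0.83, unadjusted p = 0.00155), a fold of 10.5, and the gap between the classes was 0.88 log2 units. This is the gene that DESeq2 called, at an adjusted p of 0.0394. It rested on few reads, 110, 25 and 245 for antigen p23, 31, 73 and 277 for metalloprotease and 15, 13 and 9 for GFP control.

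Members of the acid compartment and of the lysosome were among the higher genes. Roles, here and below, were assigned once the genes were known, and their shares among all genes tested were not counted. HPB47_022912, matched to lysosomal acid glucosylceramidase, the enzyme that splits glucosylceramide, had 30.9, 43.4 and 15.2 CPM in the antigen p23 pools and 13.2, 25.3 and 13.7 CPM in the metalloprotease pools, against 10.2, 8.45 and 6.29 CPM in the GFP control pools. The estimated log2 fold change was 1.50 (SE 0.50, unadjusted p = 0.0109), and the highest values were in antigen p23 replicates 1 and 2, without which it was 1.01. HPB47_007153, matched to subunit d 1 of the vacuolar ATPase, which belongs to the membrane sector of the pump, had 157, 161 and 121 CPM in the antigen p23 pools and 154, 142 and 129 CPM in the metalloprotease pools, against 114, 90.7 and 89.4 CPM in the GFP control pools. Its log2 fold change was 0.56 (SE 0.22, unadjusted p = 0.0279). HPB47_007644, matched to subunit B, the nucleotide-binding subunit of the sector that splits ATP, had 378 to 511 CPM in the knockdown pools (median 442) and 352, 348 and 351 CPM in the GFP control pools, a log2 fold change of 0.31 (SE 0.19, unadjusted p = 0.134). The control pools of subunit B lay very close together, and the nearest knockdown pool was antigen p23 replicate 3.

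The other subunits of the proton pump gave a mixed picture. Of 20 annotated vacuolar ATPase genes, 13 were tested, and 8 had positive and 5 negative log2 fold changes, with a median of 0.12. Subunit G (HPB47_014707) had 20.8 to 54.1 CPM in the knockdown pools (median 35.2) and 20.1, 18.6 and 24.9 CPM in the GFP control pools, a log2 fold change of 0.80 (SE 0.35, unadjusted p = 0.0431). A gene model of 381 bases without a listed domain, HPB47_020226, matched the catalytic subunit A. It had 166 to 396 CPM in the knockdown pools (median 239.6) and 154, 174 and 187 CPM in the GFP control pools, a log2 fold change of 0.58 (SE 0.28, unadjusted p = 0.0596). In both the pools overlapped, so that neither separates the classes. The median of the 13 was 0.06 without antigen p23 replicates 1 and 2, and -0.01 with library totals alone as the scaling, where the median of all genes tested was -0.17.

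Another 5 higher genes, grouped once they were known, matched proteins of the endoplasmic reticulum and Golgi. HPB47_010051, matched to SRP68, a subunit of the signal recognition particle that brings nascent secretory proteins to the endoplasmic reticulum, had 184, 227 and 153 CPM in the antigen p23 pools and 135, 142 and 159.9 CPM in the metalloprotease pools, against 107, 99.9 and 110.5 CPM in the GFP control pools. The log2 fold change was 0.66 (SE 0.24, unadjusted p = 0.0179). This gene model also carries DEAD/DEAH box helicase domains, and its counts cannot be assigned to either part. HPB47_027283, matched to calumenin-B, a calcium-binding protein of the endoplasmic reticulum and Golgi, had 101 to 162 CPM in the knockdown pools (median 123) and 78.4, 66.6 and 82.8 CPM in the GFP control pools, a log2 fold change of 0.74 (SE 0.24, unadjusted p = 0.00972). HPB47_021928, matched to Sec1 family domain-containing protein 1, which acts in vesicle fusion between the endoplasmic reticulum and the Golgi, was the most abundant of them and had the smallest fold of all higher genes. It had 670.1 to 782 CPM in the knockdown pools (median 691) and 561, 629 and 623 CPM in the GFP control pools, a log2 fold change of 0.23 (SE 0.18). HPB47_008744, matched to a trans-Golgi network integral membrane protein, and HPB47_007759, matched to FAS-associated factor 2, which takes part in the removal of misfolded proteins from the endoplasmic reticulum, lay at 0.34 (SE 0.24) and 0.63 (SE 0.27) on the log2 scale.

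Proteins that bind, process or translate RNA made up 8 of the higher genes, with log2 fold changes between 0.38 and 0.79. HPB47_010184, matched to G-rich sequence factor 1, an RNA-binding protein, had 278, 208 and 226 CPM in the antigen p23 pools and 258, 254 and 251 CPM in the metalloprotease pools, against 155, 144 and 187 CPM in the GFP control pools. In edgeR the log2 fold change was 0.60 (SE 0.21, unadjusted p = 0.0138), and the metalloprotease pools were close together. The neighbouring gene HPB47_010185, matched to RNA-binding protein 12, lies next to it on the same strand of the same scaffold and had 97.1 to 153 CPM in the knockdown pools (median 122) and 90.7, 78.8 and 94.4 CPM in the GFP control pools. Reads shared between these neighbours cannot be told apart here, so they may be 1 observation. Factors of ribosome assembly in this set were HPB47_009955, matched to Sas10, and HPB47_019583, matched to UTP25, with 0.79 (SE 0.36) and 0.45 (SE 0.27) on the log2 scale. HPB47_010298, matched to eukaryotic translation initiation factor 2D, which acts in starting translation, had 54.7 to 68.8 CPM in the knockdown pools (median 61.7) and 47.5, 43.8 and 50.4 CPM in the GFP control pools. The values of HPB47_003391, matched to thioredoxin-like protein 4A, a component of the spliceosome, were 84.1 to 106 CPM in the knockdown pools (median 102) and 82.4, 77.6 and 66.7 CPM in the GFP control pools. HPB47_002699, matched to a helicase with a zinc finger, lay at 0.71 (SE 0.29) on the log2 scale, and HPB47_007450, matched to the GTP-binding protein 128up, at 0.45 (SE 0.24).

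Another 8 higher genes matched metabolic and mitochondrial proteins. HPB47_013115, an acireductone dioxygenase match and thus an enzyme of methionine salvage, the pathway that recovers methionine from the by-product of polyamine synthesis, had 17.4, 30.9 and 20.9 CPM in the antigen p23 pools and 18.1, 29.1 and 18.2 CPM in the metalloprotease pools, against 9.92, 11.6 and 5.35 CPM in the GFP control pools. This gave a log2 fold change of 1.31 (SE 0.41, unadjusted p = 0.00789), and the knockdown pools spanned a narrow range. HPB47_000688, matched to 5-formyltetrahydrofolate cyclo-ligase, an enzyme of folate metabolism, had 143, 121 and 82.4 CPM in the antigen p23 pools and 71.2, 76.2 and 56.2 CPM in the metalloprotease pools, against 47.0, 53.5 and 48.1 CPM in the GFP control pools. The estimated log2 fold change was 0.89 (SE 0.33, unadjusted p = 0.0205), with the highest values in the antigen p23 pools. HPB47_009127, matched to NDUFB7, a subunit of respiratory complex I, had 75.1 to 89.1 CPM in the knockdown pools (median 84.6) and 65.2, 48.3 and 48.8 CPM in the GFP control pools, and its log2 fold change was 0.62 (SE 0.24, unadjusted p = 0.0221). Nicotinamidase (HPB47_001229), which turns nicotinamide into nicotinic acid, cardiolipin synthase (HPB47_002853), which makes a lipid of the inner mitochondrial membrane, and a mitochondrial sodium/calcium exchanger (HPB47_021885) lay at 0.79 (SE 0.33), 0.53 (SE 0.33) and 0.55 (SE 0.25) on the log2 scale. HPB47_007324, with an aldose 1-epimerase domain of sugar metabolism, had 0.47 (SE 0.29). The glutathione S-transferase match HPB47_013892, of a family of detoxifying enzymes, was weakly expressed, with 1.56 to 5.29 CPM in the knockdown pools (median 2.63) and 1.42, 1.55 and 0.944 CPM in the GFP control pools, and the classes all but touched.

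Protease inhibitors and proteins of protein quality control were the remaining named groups on the higher side. HPB47_002856, matched to serpin B3 of the serine protease inhibitor family, had 331, 389.7 and 439.9 CPM in the antigen p23 pools and 316, 465 and 299 CPM in the metalloprotease pools, against 236, 264 and 271 CPM in the GFP control pools. Its log2 fold change was 0.54 (SE 0.22, unadjusted p = 0.0328), and no pool of 1 class reached into the other. T-complex protein 1 subunit epsilon (HPB47_012317), part of the chaperonin that folds actin and tubulin, and the unc-45 homolog A (HPB47_004788), a myosin chaperone, had 0.35 (SE 0.21) and 0.43 (SE 0.32) on the log2 scale. A ubiquitin-conjugating enzyme match (HPB47_003312) and the deubiquitinase VCPIP1 match (HPB47_017319) had 0.40 (SE 0.23) and 0.42 (SE 0.24). Chromatin proteins were represented by DSP1 (HPB47_025226), a high mobility group protein with 358 to 484 CPM in the knockdown pools (median 403) and 328, 302 and 344 CPM in the GFP control pools, by the histone acetyltransferase KAT2B match (HPB47_024871), at 0.35 (SE 0.24) on the log2 scale, and by the HGV2 match (HPB47_009299) with an SHNi-TPR domain, at 0.65 (SE 0.37). The adhesion proteins of the immunoglobulin family, matched to neural cell adhesion molecule 1 (HPB47_019323) and sidekick-2 (HPB47_000212), had levels below 10 CPM in every pool, with log2 fold changes of 1.47 (SE 0.76) and 1.38 (SE 0.78). The SH2 domain protein match (HPB47_002577) had 0.52 (SE 0.31).

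Of the higher genes, 7 had neither a named match nor a protein domain. HPB47_028164 had 258, 228 and 367 CPM in the antigen p23 pools and 302, 165 and 206 CPM in the metalloprotease pools, against 114, 124 and 123 CPM in the GFP control pools, a separation by far more than the spread of the controls, with a log2 fold change of 1.08 (SE 0.28, unadjusted p = 0.00218). HPB47_013047 had 244, 174 and 149 CPM in the antigen p23 pools and 226, 73.2 and 80.4 CPM in the metalloprotease pools, against 47.0, 66.6 and 59.5 CPM in the GFP control pools, with a log2 fold change of 1.45 (SE 0.42, unadjusted p = 0.00481). In both genes the antigen p23 pools and metalloprotease replicate 1 were highest. A further abundant gene without a name, HPB47_002303, had 203 to 555 CPM in the knockdown pools (median 237) and 173, 183 and 133 CPM in the GFP control pools. HPB47_006369, which carries a membrane-associating domain found in proteins of vesicle and junction membranes, had 317, 289 and 178 CPM in the antigen p23 pools and 212, 166 and 247 CPM in the metalloprotease pools, against 135, 107 and 145 CPM in the GFP control pools, a log2 fold change of 0.87 (SE 0.27, unadjusted p = 0.00805).

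**Figure D2:**
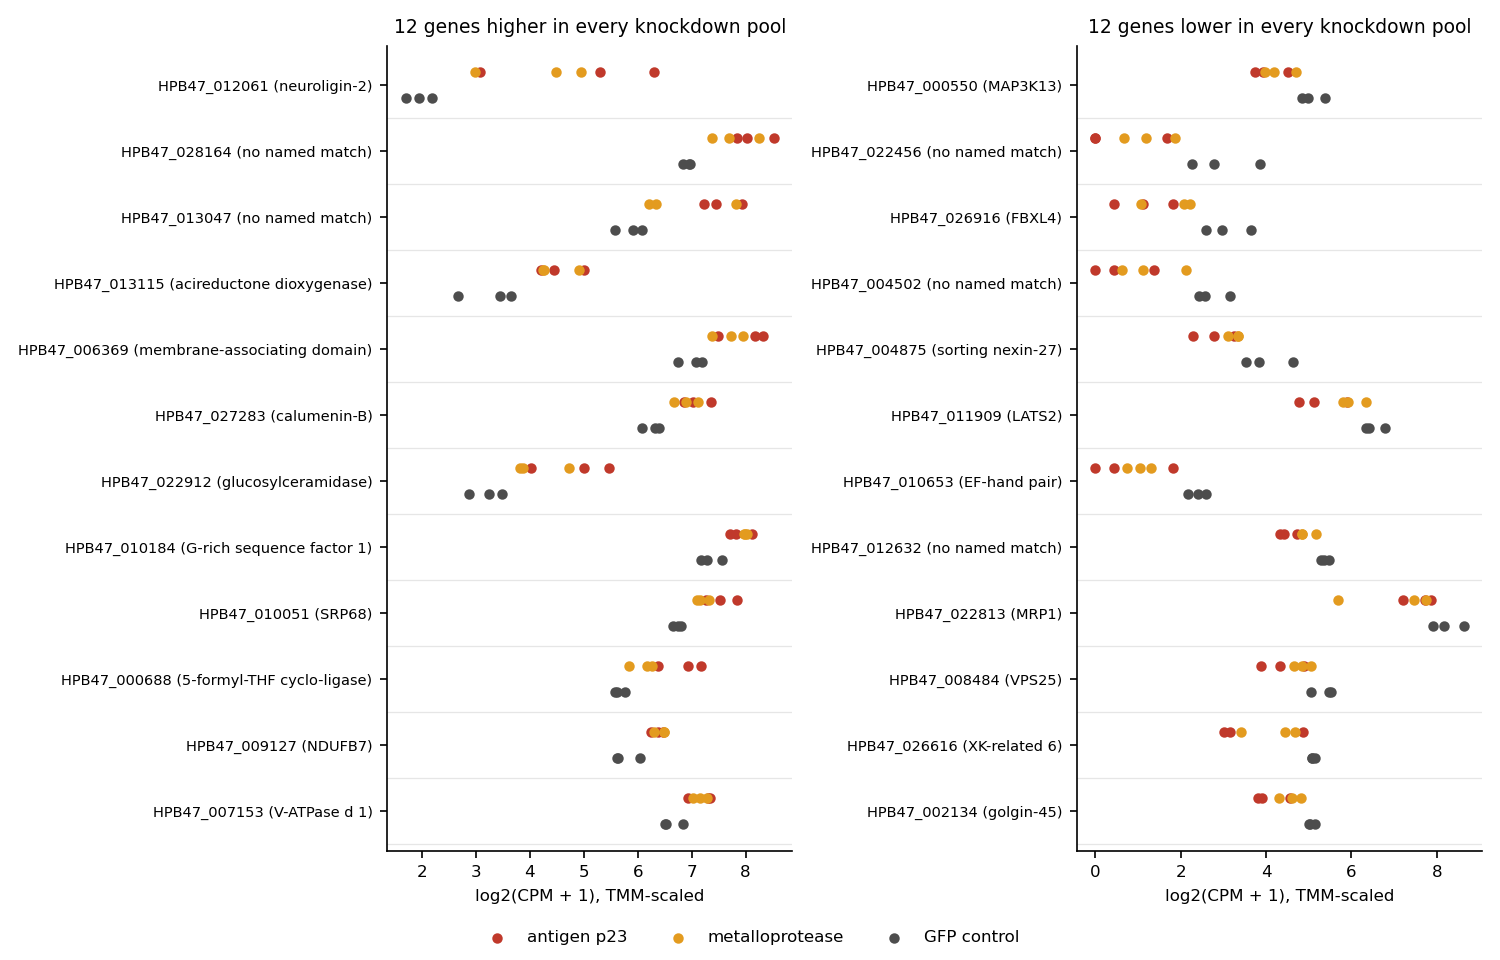
Levels as log2(CPM + 1) in each pool for the 12 higher and the 12 lower separating genes with the smallest p, knockdown pools (antigen p23 red, metalloprotease orange) on the upper line of each gene and GFP control pools (grey) on the lower line. By the rule, no knockdown point reaches the range of the control points, and several lower genes have antigen p23 points at 0.

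On the lower side, 6 genes matched kinases, receptors or other signalling proteins. HPB47_000550, matched to MAP3K13, a kinase at the top of stress-activated cascades, had 14.2, 12.5 and 21.9 CPM in the antigen p23 pools and 24.99, 14.7 and 17.3 CPM in the metalloprotease pools, against 27.9, 30.9 and 40.9 CPM in the GFP control pools. In edgeR the log2 fold change was -0.91 (SE 0.33, unadjusted p = 0.0186), the smallest p among the lower genes. HPB47_011909, matched to LATS2, the kinase of the Hippo growth pathway, had 26.4, 33.9 and 59.0 CPM in the antigen p23 pools and 80.1, 54.7 and 59.1 CPM in the metalloprotease pools, against 80.3, 109 and 84.7 CPM in the GFP control pools. This gave a log2 fold change of -0.81 (SE 0.34, unadjusted p = 0.0352), but metalloprotease replicate 1 at 80.1 CPM and GFP control replicate 1 at 80.3 CPM were nearly equal, so LATS2 was the lower gene closest to the border of the rule. The insulin receptor match (HPB47_023990), a tyrosine kinase receptor, had 9.37, 6.83 and 9.82 CPM in the antigen p23 pools and 5.58, 8.82 and 9.62 CPM in the metalloprotease pools, against 12.8, 11.6 and 13.2 CPM in the GFP control pools, a log2 fold change of -0.58 (SE 0.41, unadjusted p = 0.182). Its knockdown and control pools were each close together. The leucine-rich repeat kinase 1 match (HPB47_009966) and the Tob1 match (HPB47_025606), an antiproliferative protein, had -0.96 (SE 0.58) and -1.62 (SE 0.89) on the log2 scale. The GABA type B receptor match (HPB47_022201) had at most 5.20 CPM in any pool, with a log2 fold change of -0.99 (SE 0.88).

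Regulators of small GTPases, the switches of cytoskeleton and vesicle traffic, numbered 4. HPB47_003373, matched to dedicator of cytokinesis protein 7, an exchange factor, had 0 to 2.68 CPM in the knockdown pools (median 1.58) and 5.91, 3.62 and 5.35 CPM in the GFP control pools, a log2 fold change of -1.66 (SE 0.88). A Ras-related growth inhibitor match (HPB47_011637) had 0 to 4.16 CPM in the knockdown pools (median 3.52) and 4.72, 5.86 and 4.72 CPM in the GFP control pools, a log2 fold change of -0.97 (SE 0.98). All 4 stayed below 11 CPM in every pool, and their knockdown and control values were a few CPM apart.

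Among the lower genes, 4 matched proteins of endosome and Golgi traffic. HPB47_004875, matched to sorting nexin-27, which returns membrane proteins from endosomes to the cell surface, had 5.90, 3.86 and 8.56 CPM in the antigen p23 pools and 9.15, 9.12 and 7.68 CPM in the metalloprotease pools, against 23.6, 10.5 and 13.2 CPM in the GFP control pools. The estimated log2 fold change was -1.09 (SE 0.46, unadjusted p = 0.0347). HPB47_008484, matched to VPS25, a subunit of the ESCRT-II complex that sorts proteins into multivesicular bodies, had 13.7 to 32.1 CPM in the knockdown pools (median 26.0) and 44.6, 43.1 and 32.4 CPM in the GFP control pools, a log2 fold change of -0.72 (SE 0.33, unadjusted p = 0.0491). HPB47_002134, matched to golgin-45, which holds Golgi stacks together, had 13.1 to 27.4 CPM in the knockdown pools (median 20.7) and 31.9, 31.1 and 34.6 CPM in the GFP control pools, a log2 fold change of -0.71 (SE 0.33, unadjusted p = 0.0536). In all 3 the antigen p23 replicates 1 and 2 were the lowest pools.

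Substrate adaptors of ubiquitin ligases and related proteins made up 5 of the lower genes, with log2 fold changes between -1.92 and -0.42. HPB47_026916, matched to the F-box protein FBXL4, had 0.347, 1.19 and 2.54 CPM in the antigen p23 pools and 1.12, 3.24 and 3.68 CPM in the metalloprotease pools, against 6.85, 5.00 and 11.6 CPM in the GFP control pools, a log2 fold change of -1.92 (SE 0.74, unadjusted p = 0.0246). Few reads stood behind it, 1, 4 and 8 for antigen p23, 5, 11 and 34 for metalloprotease and 29, 29 and 37 for GFP control. HPB47_012625, matched to Mdm4, a regulator of p53, had the widest gap of the lower genes, 0.55 log2 units, at 0, 0.891 and 6.66 CPM in the antigen p23 pools and 3.79, 6.18 and 6.59 CPM in the metalloprotease pools, against 9.92, 13.1 and 12.3 CPM in the GFP control pools. Its log2 fold change was -1.53 (SE 0.86, unadjusted p = 0.101), and the antigen p23 pools ran from 0 to 6.66 CPM. FBXL5 (HPB47_001827), known for sensing iron in mammals, had 3.12 to 8.24 CPM in the knockdown pools (median 6.25) and 10.2, 10.2 and 8.81 CPM in the GFP control pools. The most abundant of the set was the RING-type ligase PPIL2 match (HPB47_002509), whose 3 control pools lay between 67.8 and 68.0 CPM and whose knockdown pools lay between 41.8 and 60.9 CPM.

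Transporters, lipid enzymes and surface proteins completed the named lower genes. HPB47_022813, matched to multidrug resistance-associated protein 1, an ABC transporter that exports conjugated compounds, was the most abundant lower gene and had 146, 211 and 230.1 CPM in the antigen p23 pools and 50.9, 213 and 176 CPM in the metalloprotease pools, against 394, 239.9 and 286 CPM in the GFP control pools. In edgeR the log2 fold change was -0.84 (SE 0.38, unadjusted p = 0.0488), and metalloprotease replicate 1 was far below the other pools. HPB47_014202, matched to an elongase of very long chain fatty acids, had 0, 0 and 2.22 CPM in the antigen p23 pools and 4.91, 3.82 and 3.57 CPM in the metalloprotease pools, against 5.20, 12.8 and 8.18 CPM in the GFP control pools, a log2 fold change of -1.81 (SE 1.02). Beta-1,4-galactosyltransferase 1 (HPB47_005166), which adds galactose to glycans in the Golgi, had 108 to 134 CPM in the knockdown pools (median 130.4) and 151, 143 and 157 CPM in the GFP control pools, the smallest fold of the lower genes. Syndecan-2 (HPB47_027654), a heparan sulfate proteoglycan of the cell surface, had 30.4 to 43.5 CPM in the knockdown pools (median 40.7) and 52.9, 45.5 and 61.1 CPM in the GFP control pools. The phosphatidylinositol synthase match (HPB47_005894), hemicentin-1 (HPB47_012539), contactin (HPB47_007133) and the XK-related protein 6 match (HPB47_026616), of a family of membrane proteins, lay at -0.76 (SE 0.83), -1.70 (SE 0.94), -0.75 (SE 0.65) and -1.03 (SE 0.47) on the log2 scale. Among transcription and chromatin proteins the homeobox protein PKNOX2 match (HPB47_012603), the trithorax group protein osa match (HPB47_021187) and a subunit match of transcription factor IIIC (HPB47_007403) had -1.40 (SE 0.91), -1.01 (SE 0.92) and -0.87 (SE 0.43).

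The lower genes without a name or domain numbered 11. A Swiss-Prot match was held by 67.3% of the lower and 72.9% of the higher genes, against 74.4% of all genes tested. HPB47_022456 had 0, 0 and 2.22 CPM in the antigen p23 pools and 2.68, 0.588 and 1.297 CPM in the metalloprotease pools, against 3.78, 5.86 and 13.5 CPM in the GFP control pools, the most negative log2 fold change of all separating genes at -2.71 (SE 1.02, unadjusted p = 0.022). HPB47_004502 had 0.347, 0 and 1.58 CPM in the antigen p23 pools and 3.35, 1.18 and 0.541 CPM in the metalloprotease pools, against 4.96, 7.93 and 4.41 CPM in the GFP control pools, a log2 fold change of -2.27 (SE 0.94, unadjusted p = 0.0335), and lies beside the Tollo match HPB47_004501 on scaffold JABSTQ010010690.1 from 92037 to 96183. The Toll-like receptor Tollo, a receptor of the innate immune family, had 51.7 to 128 CPM in the knockdown pools (median 83.2) and 132, 272 and 80.9 CPM in the GFP control pools and did not separate the pools. HPB47_010653, which has no named match but an EF-hand pair that binds calcium, had 0.347, 0 and 2.54 CPM in the antigen p23 pools and 0.669, 1.47 and 1.08 CPM in the metalloprotease pools, against 3.54, 4.31 and 5.04 CPM in the GFP control pools, a log2 fold change of -2.05 (SE 0.92, unadjusted p = 0.0463). In these 3 separating genes antigen p23 replicate 2 had 0 reads, so that the knockdown pools at the top of the class were antigen p23 replicate 3 or a metalloprotease pool.

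**Figure D3:**
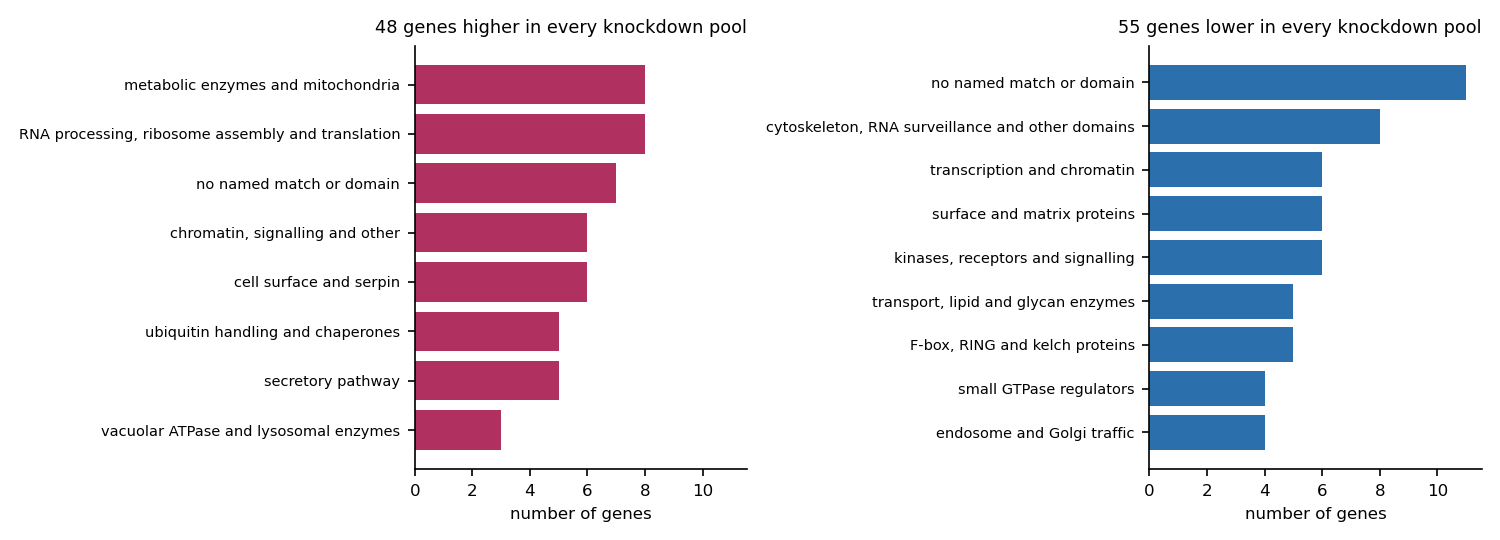
Number of separating genes by the role of their match, for the 48 genes higher (left) and the 55 genes lower (right) in every knockdown pool, roles having been assigned after the genes were known. Metabolic and RNA-related proteins hold 8 higher genes each, and on the lower side the 11 genes with no named match or domain form the largest set. The share of each role among all genes tested was not counted, so the numbers show no excess of a role.

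Each knockdown was also set against the GFP control in a fit with 3 groups, to see how much each gives to the joint value. Both comparisons use the same 3 control pools, and their values are therefore set side by side without a measure of likeness. The median log2 fold change of the 48 higher genes was 0.70 for antigen p23 and 0.52 for metalloprotease, and that of the 55 lower genes -1.11 for antigen p23 and -0.81 for metalloprotease. The absolute log2 fold change was larger for antigen p23 at 36 of the 48 higher and 46 of the 55 lower genes, as it was at 4809 of all 6924 genes tested. For the neuroligin-2 match HPB47_012061 the values were 3.83 (SE 0.85) for antigen p23 and 2.76 (SE 0.82) for metalloprotease. For glucosylceramidase (HPB47_022912) they were 1.84 (SE 0.52) for antigen p23 and 1.06 (SE 0.51) for metalloprotease, and for the acireductone dioxygenase match (HPB47_013115) 1.36 (SE 0.48) for antigen p23 and 1.27 (SE 0.48) for metalloprotease. Among lower genes LATS2 (HPB47_011909) had -1.20 (SE 0.37) for antigen p23 and -0.50 (SE 0.36) for metalloprotease, while the ABC transporter match HPB47_022813 had -0.65 (SE 0.46) for antigen p23 and -1.07 (SE 0.46) for metalloprotease.

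The direct difference between the knockdowns, which does not use the control levels, was tested for every gene. In edgeR it gave no call after adjustment, either at the 103 separating genes or at any of the 6924 genes (0%), and 276 genes (3.99%) had an unadjusted p of 0.05 or less. A single separating gene was among these 276, the 5-formyltetrahydrofolate cyclo-ligase match HPB47_000688, with an antigen p23 minus metalloprotease difference of 0.77 (95% interval 0.09 to 1.44) and an unadjusted p of 0.0298. The intervals were wide enough that a difference of several fold was not detectable for weak genes. They were 0.05 (95% interval -0.53 to 0.63) for vacuolar ATPase subunit d 1 (HPB47_007153), 1.07 (95% interval -0.59 to 2.73) for the neuroligin-2 match (HPB47_012061) and -1.02 (95% interval -4.00 to 1.97) for the unnamed HPB47_022456. A difference that misses the threshold does not show that the knockdowns act alike.

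**Figure D4:**
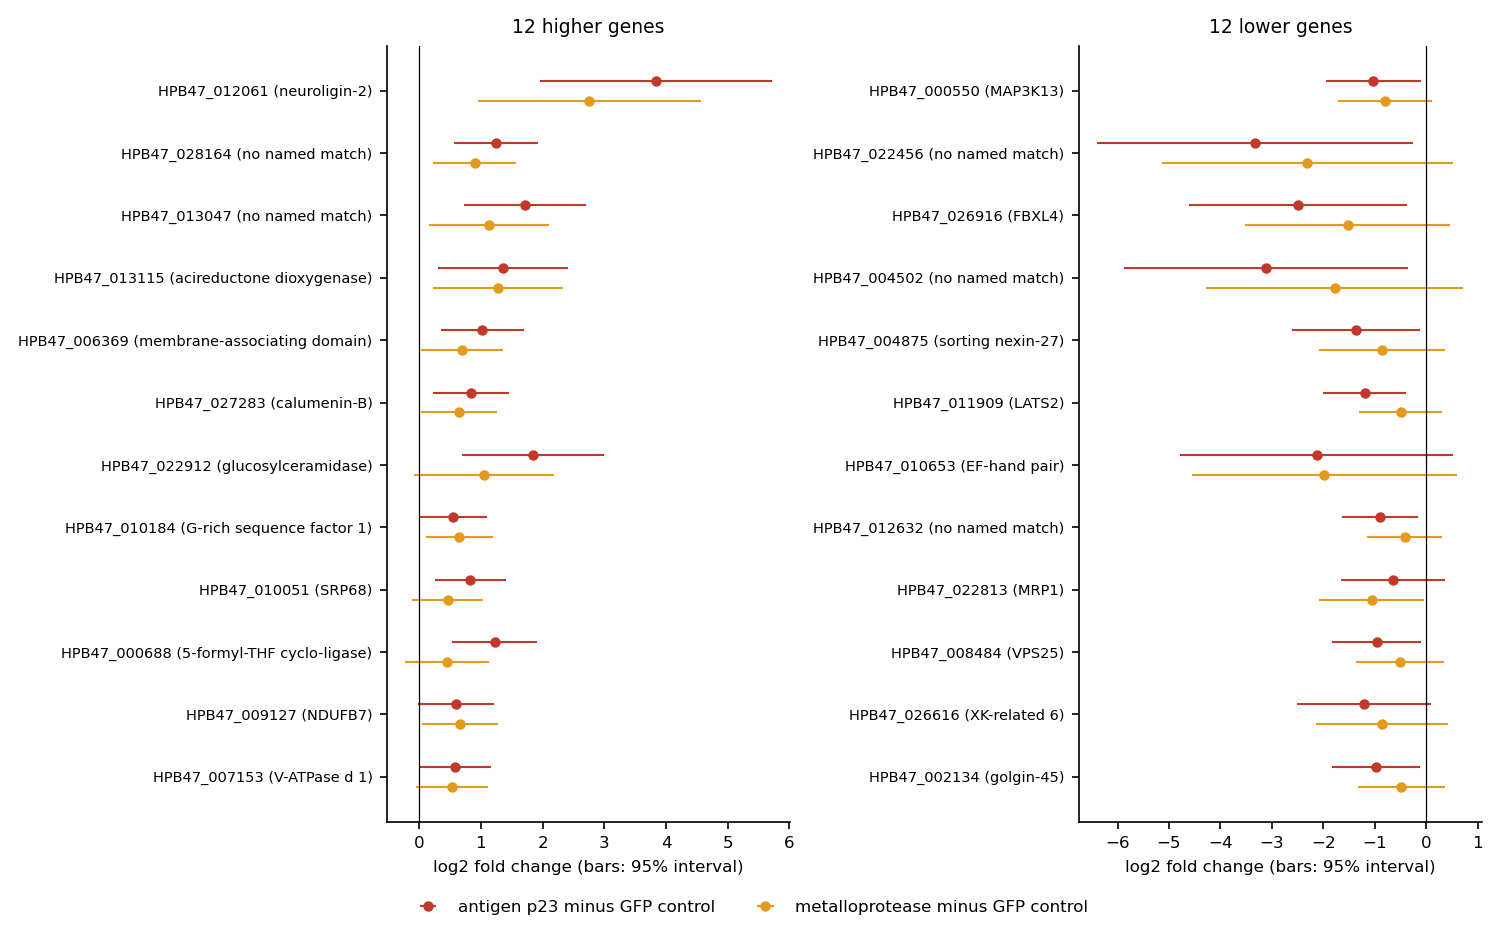
Log2 fold changes of antigen p23 (red) and metalloprotease (orange) over GFP control with 95% intervals, from the fit with 3 groups, for the 12 higher and 12 lower separating genes with the smallest p. The rule by which the genes were chosen places both estimates on the same side of 0. The intervals of the weakly expressed lower genes are several log2 units wide.

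Gene families of blood digestion, defence and signalling were followed as 30 lists, of which 13 held at least 1 separating gene and 17 none. In all, 10 of the 48 higher genes (20.8%) and 7 of the 55 lower genes (12.7%) belonged to a list, against 13.3% of all genes tested. Over all 6924 genes 47.1% of the log2 fold changes were positive. Vacuolar ATPase, with 2 higher genes, the EF-hand proteins, with calumenin-B and nicotinamidase higher and HPB47_010653 lower, and the protein kinases, with MAP3K13, LATS2 and the insulin receptor lower, held more than 1. Of the 132 protein kinases tested, 48 had positive and 84 negative log2 fold changes, with a median of -0.12, against -0.03 over all genes tested. Those medians were -0.05 and -0.01 without antigen p23 replicates 1 and 2. Cytosolic ribosomal proteins leaned the other way, with 39 of 50 positive, a median of 0.24 and no member that separates the pools or has an unadjusted p of 0.05 or less. Their median was 0.11 without antigen p23 replicates 1 and 2, and 0.08 with library totals alone, where that of all genes was -0.17.

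The enzymes that digest haemoglobin did not separate the classes. Of 17 legumains and cathepsins tested, 11 had positive log2 fold changes, with a median of 0.46 that was 0.20 without antigen p23 replicates 1 and 2. A legumain match (HPB47_028387), a cysteine protease of haemoglobin digestion, had 361, 52.3 and 66.2 CPM in the antigen p23 pools and 24.1, 104 and 199 CPM in the metalloprotease pools, against 5.91, 7.42 and 54.1 CPM in the GFP control pools. This gave a log2 fold change of 2.59 (SE 0.99, unadjusted p = 0.0233), and GFP control replicate 3 lay within the knockdown range. The lysosomal protective protein match (HPB47_005579), a serine carboxypeptidase that trims peptides in the lysosome, had 308, 564 and 269 CPM in the antigen p23 pools and 258, 102 and 256 CPM in the metalloprotease pools, against 73.9, 174 and 97.6 CPM in the GFP control pools, a log2 fold change of 1.34 (SE 0.47, unadjusted p = 0.0142) that came with overlapping pools. Neither ferritin nor the trypsin-like proteases, the zinc metallopeptidases, the cytochrome P450 genes or the RNA interference machinery held a separating gene.

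Serpins, which block serine proteases, had 18 of 22 positive log2 fold changes, with a median of 0.47 that was 0.24 without antigen p23 replicates 1 and 2. Besides serpin B3, 1 serpin was higher and 1 lower at an unadjusted p of 0.05 or less. The intracellular coagulation inhibitor 1 match (HPB47_008072) had 4219, 4719 and 5023 CPM in the antigen p23 pools and 5514, 2032 and 948 CPM in the metalloprotease pools, against 601, 2214 and 1183 CPM in the GFP control pools, a log2 fold change of 1.49 (SE 0.56, unadjusted p = 0.0219). The high value of GFP control replicate 2 lay among the knockdown values, and GFP control replicate 3 lay above metalloprotease replicate 3. The leukocyte elastase inhibitor match (HPB47_005940) had 11.5 to 40.6 CPM in the knockdown pools (median 15.2) and 54.1, 19.7 and 54.8 CPM in the GFP control pools, a log2 fold change of -1.20 (SE 0.47, unadjusted p = 0.0246). Its gene model also carries a ribosomal protein L4/L1 domain. Of the insulin, Notch and HES genes, 9 of 22 had positive and 13 negative log2 fold changes. The HES-1 match (HPB47_006896), a transcriptional repressor of the Notch pathway, had 47.3 to 266 CPM in the knockdown pools (median 179) and 65.7, 76.4 and 70.2 CPM in the GFP control pools, where metalloprotease replicate 1 lay below all controls. The insulin-family peptide gene HPB47_024016 had 5.21 to 38.7 CPM in the knockdown pools (median 18.0) and 49.4, 35.0 and 91.6 CPM in the GFP control pools, where antigen p23 replicate 3 lay above GFP control replicate 2.

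None of the 6 marker lists, that of the midgut included, held a separating gene. All 12 muscle markers tested had positive log2 fold changes, with a median of 0.23, and none had an unadjusted p of 0.05 or less. With library totals alone 8 of the 12 were positive and their median was 0.06, where that of all genes was -0.17. Genes listed as neuronal by their matches, the most abundant being a neurexin-4 match, had 69.4 to 91.3 CPM summed in the knockdown pools and 69.3 to 149 CPM in the GFP control pools. That list also took in YKT6 and syntaxin matches, and whether its genes mark nerve cells in this tissue was not checked. The sums of cuticle and tracheal markers were 330 to 2250 CPM in the knockdown pools and 1040 to 2320 CPM in the GFP control pools. Salivary gland markers had 24.5 to 354 CPM in the knockdown pools and 34.7 to 181 CPM in the GFP control pools, of which 6 of 9 had no count. The part of these cells in the values of the separating genes was not tested.

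How the libraries are scaled decided part of the list. Of the 48 higher genes 12, and of the 55 lower genes 33, separated the classes under all 4 scalings tried. With library totals alone, where the median log2 fold change of all genes was -0.17 in place of -0.03, 25 genes were higher and 85 lower, of which 13 and 41 were on the main list. The higher genes that kept their separation under all 4 scalings included the neuroligin-2 match (HPB47_012061), calumenin-B (HPB47_027283), SRP68 (HPB47_010051), glucosylceramidase (HPB47_022912), G-rich sequence factor 1 (HPB47_010184), vacuolar ATPase subunit d 1 (HPB47_007153) and the unnamed HPB47_028164. Sorting nexin-27 (HPB47_004875), FBXL4 (HPB47_026916), Mdm4 (HPB47_012625) and the insulin receptor match (HPB47_023990) were among the lower ones.

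The rule cuts through a continuum of genes. Just inside it on the higher side, the sodium/calcium exchanger match HPB47_021885 had 77.6 CPM in its lowest knockdown pool and 77.4 CPM in its highest GFP control pool. Just outside, the clathrin interactor 1 match HPB47_025679 had 923.6 and 924.7 CPM and the ribosome maturation protein SBDS match HPB47_005036 had 23.2 and 23.3 CPM. On the lower side, the cyclin-D3 match HPB47_007906 missed the rule with 24.9 CPM both in its highest knockdown pool and in its lowest GFP control pool. Of the 50 genes higher at an unadjusted p of 0.05 or less, 19 separated the classes (38% of those 50 and 39.6% of the 48), and of the 42 lower genes 10 did (23.8% of those 42 and 18.2% of the 55).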

How the data were processed

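Poly-A RNA of 9 midgut pools was sequenced by the authors, who aligned cleaned paired reads with Bowtie2 2.5.3 to the I. persulcatus genome (BIME_Iper_1.3) and assigned them to genes with featureCounts. The table they deposited holds raw read counts for 28510 genes and was not normalized. Neither the strand setting nor the handling of multi-mapping reads is stated in the material at hand, which leaves counts of similar, overlapping or antisense genes uncertain. The libraries were scaled with TMM in edgeR 4.0.16 (R 4.3.3), filtered with filterByExpr and fitted with 2 classes by the robust quasi-likelihood F test, with Benjamini-Hochberg adjustment at 0.05 over 6924 genes. The SE was derived from the F statistic. A fit with 3 groups gave each knockdown's value. The study's own DESeq2 fits, of each knockdown against GFP control, hold no such joint contrast. It reports differentially expressed genes for each knockdown, some of them shared and mostly changed in the same direction. In edgeR, each knockdown alone against GFP control gave 0 calls after adjustment. DESeq2 was not run here on each knockdown alone, so the study's calls were not checked. DESeq2 1.42.0, limma 3.58.1 voom with sample weights, other scalings and filters, a replicate block and the omission of libraries were alternatives. The test was checked on simulated counts.

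The members, the 36 gene lists and the rule for named genes were chosen with earlier results of these data known. Named by rule were up to 12 separating genes per direction with the smallest p, 5 with the widest gap (log2 CPM, prior count 2) and up to 3 tested members of a list with the smallest p. The others were chosen after their values were seen. P values set a difference between groups against the spread between pools. In the fit with 2 classes, differences between the knockdowns count as part of that spread. No sequence is printed, since none of I. persulcatus was given.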

Additional observations from a re-analysis of the deposited data

Results flagged for a closer look

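In 14 of 125 values tested for a library far from the other 5 knockdown libraries, 1 library stood apart. The cut-off assumes normally spread values, and the genes were chosen on these same data, so no chance share is set beside the count. The total counts of metalloprotease replicate 3, 9430607, were far above the next highest knockdown library at 3892337. Antigen p23 replicate 2 was the highest knockdown pool at 5 higher genes, with 19.0 CPM for HPB47_000354, 57.6 CPM for nicotinamidase (HPB47_001229), 85.9 CPM for the SH2 domain protein match (HPB47_002577), 56.4 CPM for the Sas10 match (HPB47_009955) and 60.0 CPM for HPB47_019113, a protein with a C3HC4 zinc finger. It was the lowest, at 0 CPM, for the phosphatidylinositol synthase match (HPB47_005894). Antigen p23 replicate 1 was the highest knockdown pool at 7.98 CPM for sidekick-2 (HPB47_000212), at 485 CPM for HPB47_006257 and at 1745 CPM for the clathrin interactor 1 match (HPB47_025679), and the lowest at 2.08 CPM for the coiled-coil protein match HPB47_026085. Antigen p23 replicate 3 stood apart at 40.6 CPM for the leukocyte elastase inhibitor match (HPB47_005940). Metalloprotease replicate 1 was the highest at 4.24 CPM for a heat shock protein 68 match (HPB47_024649) and the lowest at 30.4 CPM for syndecan-2 (HPB47_027654).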

How the results depend on the processing

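No alternative but DESeq2, which called 1 gene (HPB47_012061), gave a gene past the adjusted threshold. At an unadjusted p of 0.05 or less, the 50 higher and 42 lower genes became 24 and 62 with library totals alone, 69 and 347 without a filter on low counts, 46 and 68 with 3 groups in the fit, 145 and 209 with limma voom sample weights, 112 and 81 with DESeq2, and 99 and 109 with antigen p23 alone against GFP control. Leaving out 1 library gave 28 to 85 higher and 26 to 116 lower genes. The 103 separating genes became 157 without a filter and 64 with at least 10 counts in every library. They became 219 without antigen p23 replicates 1 and 2 together, 741 with antigen p23 alone and 385 with metalloprotease alone, and 139 to 485 when 1 library was left out, since fewer pools are easier to separate. The libraries whose omission gave more than 1.5 times as many were GFP control replicate 2 (485), 3 (359) and 1 (220), metalloprotease replicate 1 (260) and 2 (189), and antigen p23 replicate 3 (160). The split of 48 higher and 55 lower genes was 25 and 85 with library totals alone, 50 and 107 without a filter and 40 and 24 with at least 10 counts in every library. At the 27 genes named by p or gap, the difference between the knockdowns gave 0 calls under each alternative run, of which the filter of at least 10 counts in every library tested 19 of them. The difference in detected genes of -1140 stayed negative, between -1443 and -624.5 with 1 library left out. Deviations of same-numbered pools from their group means had correlations of -0.47 to 0.10 between groups. Metalloprotease and GFP control varied in opposed directions in replicates 1 (-0.41) and 2 (-0.47), with 0.10 in replicate 3. The replicate block gave 0 calls after adjustment, with 34 genes higher and 31 lower at an unadjusted p of 0.05 or less. With 3 control pools and levels under 10 CPM for 35 of the lower genes, small differences were not detectable.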

Other observations

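Some abundant genes had large log2 fold changes although their pools overlapped. HPB47_014374, matched to the phosphatase PTPRQ and with fibronectin domains, had 21380, 13350 and 8519 CPM in the antigen p23 pools and 9503, 11480 and 3918 CPM in the metalloprotease pools, against 3339, 5603 and 1819 CPM in the GFP control pools. Its log2 fold change was 1.66 (SE 0.51, unadjusted p = 0.00702), and metalloprotease replicate 3 lay below GFP control replicate 2. A chitinase-3-like match (HPB47_003950), of a family that binds or cuts chitin, had 157 to 810.1 CPM in the knockdown pools (median 488) and 289, 230.4 and 302 CPM in the GFP control pools, a log2 fold change of 0.93 (SE 0.42, unadjusted p = 0.049), with metalloprotease replicate 1 below all controls. The Toll match HPB47_023216, an innate immune receptor, had 158 to 574 CPM in the knockdown pools (median 238) and 107, 171 and 140.1 CPM in the GFP control pools, a log2 fold change of 1.08 (SE 0.41, unadjusted p = 0.021).

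A pair of genes matched to heat shock protein 68 was high in 2 of the control pools, while 27 of the 48 heat shock proteins and chaperones tested had positive log2 fold changes, with a median of 0.06. The heat shock protein 68 match HPB47_010377, an Hsp70-type chaperone, had 5.90, 5.35 and 6.34 CPM in the antigen p23 pools and 40.2, 1.76 and 20.2 CPM in the metalloprotease pools, against 345, 72.8 and 5.35 CPM in the GFP control pools, a log2 fold change of -3.38 (SE 1.05, unadjusted p = 0.00854). GFP control replicate 3 was within the knockdown range. A second match to heat shock protein 68 (HPB47_024649) had 0, 0 and 0 reads in the antigen p23 libraries and 19, 0 and 5 in the metalloprotease libraries, against 209, 34 and 0 in the GFP control libraries. Receptors on the lower side included a GABA receptor subunit match (HPB47_024787), of the family of chloride channels opened by GABA, with 8.61 to 32.0 CPM in the knockdown pools (median 19.1) and 63.8, 26.0 and 71.4 CPM in the GFP control pools and a log2 fold change of -1.47 (SE 0.48, unadjusted p = 0.0105).

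Of the 103 separating genes, 5 pairs lay within 4 gene positions of each other on a scaffold. The pairs were HPB47_010184 with HPB47_010185, cardiolipin synthase (HPB47_002853) with serpin B3 (HPB47_002856), both higher, HPB47_021183 with osa (HPB47_021187), both lower, and 2 pairs of opposite direction, a ubiquitin-conjugating enzyme match (HPB47_003312) with an ankyrin repeat protein match (HPB47_003316) and HGV2 (HPB47_009299) with HPB47_009297. These genes were chosen after their values were seen, and no test of them was run.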
